A study of Homo sapiens with 12 samples.

Results

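Transcript levels of WNT pathway genes were taken from RNA sequencing of MDA-MB-231 cells, a human triple-negative breast cancer line with a mesenchymal character. The genes are the WNT ligands, their frizzled receptors and co-receptors, the secreted antagonists, regulators inside the cell or at its membrane, and transcription factors. They were chosen by symbol: 53 of the 57773 genes of the deposited table matched, and the 34 with at least 10 counts in 3 or more libraries are described. The 12 libraries form 4 groups of 3, all treated for 48 h where an agent was given: TGFβ plus alisertib (the combination, libraries 10 to 12), TGFβ alone (4 to 6), alisertib alone (7 to 9) and no treatment (1 to 3). All 4 groups are the same line, cultured with 10% fetal bovine serum. TGFβ is a cytokine whose receptors activate SMAD transcription factors, and alisertib inhibits the mitotic kinase Aurora A. Neither the doses nor the TGFβ isoform is given in the sources used here. The labels do not say whether the 3 libraries per group are separate cultures, and a p-value here therefore reflects spread that may be technical.

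WNT ligands are secreted, lipid-modified proteins that bind frizzled receptors. Together with the co-receptors LRP5 and LRP6 they stop a complex built on AXIN from marking β-catenin for destruction, and β-catenin then acts in the nucleus with TCF and LEF proteins. Other signals of the same ligands run through ROR1, ROR2 and RYK to cell polarity and calcium without β-catenin. Secreted DKK and SFRP proteins block the pathway outside the cell, and RNF43 and ZNRF3 are ubiquitin ligases that clear frizzled receptors from the surface. AXIN2, NKD1 and RNF43 are known as feedback inhibitors whose genes β-catenin can itself induce.

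Total counts per library were 93701658 to 120619368, and 20571 genes entered the tests. Levels are CPM, scaled read counts (TMM factors), unless RPKM is named. Changes are log2 fold changes ± SE from edgeR's quasi-likelihood test, and a gene was called changed at a Benjamini-Hochberg adjusted p under 0.05 over all tested genes. The summed level of the markers VIM, CD44, EGFR, CAV1 and SPARC was 4918 to 5133 CPM in the combination, 4856 to 5110 CPM with TGFβ alone, 3944 to 4048 CPM with alisertib and 3668 to 3864 CPM in untreated cells, although SPARC alone was low. ESR1, PGR, FOXA1 and AGR2, markers of luminal breast cells, stayed under 0.1 CPM in every library. The other luminal markers, KRT8, KRT18, KRT19, EPCAM and GATA3, were higher. The receptor list of ESR1, PGR and ERBB2, nearly all ERBB2, summed to 48.5 to 73.2 CPM over all 12 libraries. Of other cell types, the fibroblast list summed to 139.2 to 188.4 CPM in the combination and 180.9 to 213.7 CPM with TGFβ alone. It summed to 23.7 to 27.9 CPM with alisertib and 24.4 to 31.8 CPM in untreated cells. On average COL1A1, COL1A2 and PDGFRB made up most of that list, while DCN and THY1 stayed under 0.1 CPM. The leukocyte list, mostly CD68, summed to 81.4 to 92.8 CPM in the combination, 72.6 to 80.7 CPM with TGFβ alone, 67.0 to 73.1 CPM with alisertib and 45.6 to 60.6 CPM in untreated cells, with CD3E and CD2 under 0.1 CPM. The luminal list, mostly KRT8, KRT18 and KRT19, summed to 617.4 to 853.5 CPM over all 12 libraries. The endothelial list summed to 1.72 to 3.79 CPM, with CDH5 and VWF under 0.1 CPM. The part of other cell types in the results below was not tested. In bulk RNA, fewer cells of a type and less RNA per cell cannot be told apart.

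Promoter windows are shown first for 3 members that the results turn on: WNT5B, the ligand with the clearest rise under TGFβ, DKK1, the most abundant antagonist, and TCF7, a transcription factor. Of the 2 WNT5B windows in the table, the one with motif matches is shown. They run from 250 bases before to 50 after a RefSeq start site in GRCh38.p14, on the plus strand, and are chr12:1628981-1629280 for WNT5B, chr10:52314031-52314330 for DKK1, and chr5:134115363-134115662 and chr5:134123368-134123667 for TCF7. Capitals mark matches, on either strand, to the TATA box, the GC box and a SMAD element, whose letters follow the windows.
WNT5B: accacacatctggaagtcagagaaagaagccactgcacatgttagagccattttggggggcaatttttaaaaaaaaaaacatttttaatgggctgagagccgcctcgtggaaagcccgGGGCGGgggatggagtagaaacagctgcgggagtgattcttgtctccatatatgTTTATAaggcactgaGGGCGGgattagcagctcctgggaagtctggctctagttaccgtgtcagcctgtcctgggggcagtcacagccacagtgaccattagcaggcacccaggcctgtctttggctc
DKK1: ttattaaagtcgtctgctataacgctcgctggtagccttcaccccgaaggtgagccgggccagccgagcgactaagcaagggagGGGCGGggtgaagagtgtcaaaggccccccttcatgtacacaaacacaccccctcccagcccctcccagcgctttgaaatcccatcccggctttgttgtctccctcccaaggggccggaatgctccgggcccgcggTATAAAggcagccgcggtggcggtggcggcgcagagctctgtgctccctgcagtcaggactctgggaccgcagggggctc
TCF7, first window: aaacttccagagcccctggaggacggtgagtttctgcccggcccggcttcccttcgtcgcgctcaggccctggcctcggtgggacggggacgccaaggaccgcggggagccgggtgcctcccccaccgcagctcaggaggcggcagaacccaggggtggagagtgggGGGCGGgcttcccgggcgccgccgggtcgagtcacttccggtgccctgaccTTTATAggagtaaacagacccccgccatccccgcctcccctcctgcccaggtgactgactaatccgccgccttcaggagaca
TCF7, second window: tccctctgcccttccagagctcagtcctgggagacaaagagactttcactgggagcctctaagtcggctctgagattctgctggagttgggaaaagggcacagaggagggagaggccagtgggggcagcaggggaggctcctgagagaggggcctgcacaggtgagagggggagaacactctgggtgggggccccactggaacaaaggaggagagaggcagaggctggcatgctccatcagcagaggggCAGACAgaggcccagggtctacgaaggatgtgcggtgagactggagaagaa
RefSeq windows were found for 22 of the 34 described members, 29 in all. CTTTGAT, the core of the TCF and LEF motif, was in 0 of these 29 windows, against 2.62% of all 35116 windows of the table. CAGACA, a SMAD element, was in the second TCF7 window, where it begins 1 base before the start site, and in a window of RYK, against 16.9% of all windows. The palindromic SMAD element GTCTAGAC was in 0 of the 29 windows and in 0.2% of all. TATAAA, the TATA box, was in 4 of the 29 windows, against 11.5% of all windows: DKK1 held it 30 bases before its start site and FZD8 29 bases before, while TCF7 and WNT5B held it on the opposite strand. GGGCGG, the GC box, was in 20 member windows and in 44.95% of all windows, and the median GC content was 65.7% in member windows against 58.7% in all. These matches describe letters only, and a window without a match says nothing about a factor.

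β-catenin (CTNNB1) and the antagonist DKK1 had the highest levels per gene length in every group, followed by the receptor FZD6. CTNNB1 had 100.5 ± 2.3 RPKM in the combination, 100.3 ± 3.2 RPKM with TGFβ, 90.9 ± 1.6 RPKM with alisertib and 96.7 ± 5.2 RPKM in untreated cells (SD, n = 3 each). DKK1 had 64.0 ± 3.5 RPKM in the combination, 58.6 ± 1.1 RPKM with TGFβ, 142 ± 4.4 RPKM with alisertib and 118 ± 4.7 RPKM in untreated cells. All 34 described members entered the tests, and 31 of them had at least 10 counts in every library. The exceptions were WNT11, NKD1 and WNT4. NKD1 reached 10 counts in 3 of 3 combination and 3 of 3 TGFβ libraries but in 0 libraries of the other 2 groups, and WNT11 in 3 of 3, 3 of 3, 1 alisertib and 0 untreated libraries. Both entered the set through the groups where they are high, so their rank by group is given as a description only. The counts of called members below include NKD1 with TGFβ alone, and both genes in the combination against alisertib and against untreated cells. Their calls were fixed in part by that rule and add no support to those counts. The other 19 matched genes were WNT1, WNT2, WNT3A, WNT6, WNT7A, WNT8A, WNT8B, WNT9B, WNT16, FZD9, FZD10, ROR2, DKK2, DKK4, SFRP1, SFRP2, SFRP4, SFRP5 and NKD2. WNT1, WNT6, WNT16, FZD9, FZD10, DKK2, SFRP5 and NKD2 had 0 counts in every library, which allows up to 3 counts, or 0.00236 CPM, over all libraries together. The other 11, among them SFRP1, SFRP2 and SFRP4, had 2 to 42 counts in total. At the edge of the rule, WNT4 had 10 counts or more in 3 libraries and 86 in total, ROR2 in 1 library with 41 in total, and SFRP1 in 0 libraries with 42 in total.

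**Figure D1:**
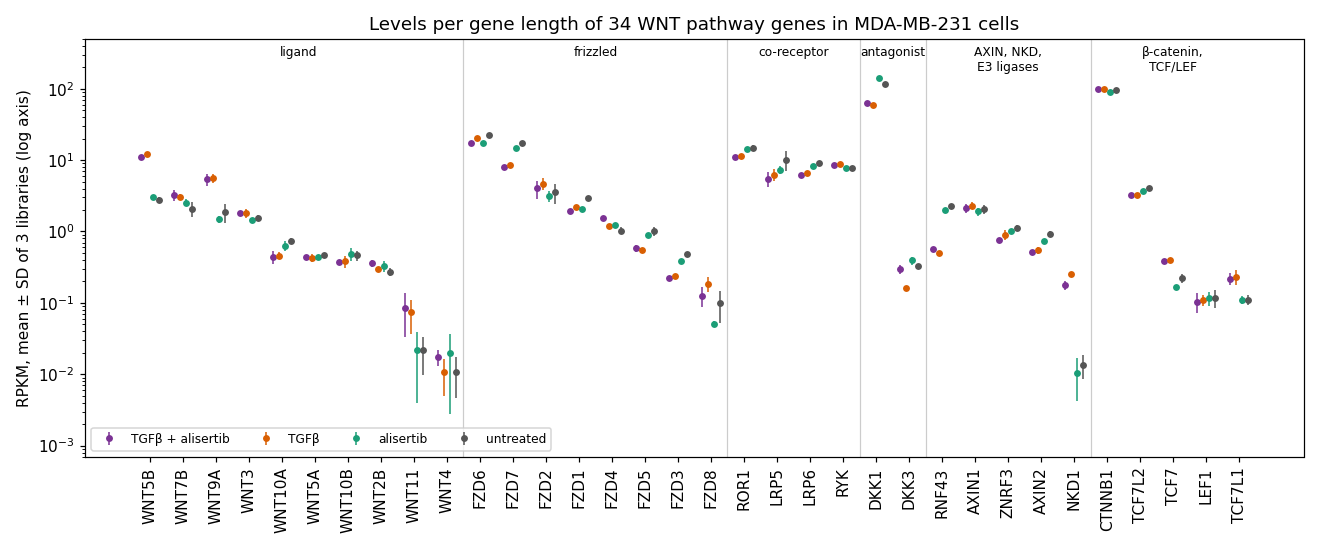
Mean ± SD of RPKM (log axis) over 3 libraries for the 34 described genes, ordered by role and by level, with the combination, TGFβ, alisertib and untreated groups side by side. WNT5B, WNT9A, NKD1, TCF7 and TCF7L1 are higher in both groups with TGFβ, and FZD7, FZD3, DKK1 and RNF43 are lower there.

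TGFβ alone raised 8 and lowered 14 of the 34 genes, while 12 did not pass the test. These 22 calls are 64.7% of the members, beside 38.6% of all tested genes called in that comparison, 18.5% higher and 20.1% lower. The members' median change was -0.11 on the log2 scale, against -0.01 over all tested genes. Among the 10 ligands 3 rose and 1 fell, among the 8 frizzled genes 1 rose and 4 fell, and among the 4 co-receptors 1 rose and 3 fell. Both measured antagonists fell, 3 of the 5 AXIN, NKD, RNF43 and ZNRF3 genes fell and 1 rose, and 2 of the 5 β-catenin, TCF and LEF genes rose and 1 fell. The same question was asked in cells that also received alisertib, by setting the combination against alisertib alone, a comparison that shares no library with the first. There 11 rose, 12 fell and 11 did not pass, beside 38.4% of all tested genes called, 19.4% higher and 19.0% lower. Of the genes called, 19 were called in both settings and all 19 changed in the same direction: 86.4% of the first set and 82.6% of the second, against 82.0% and 82.4% for all tested genes. FZD1, LRP5 and WNT7B were called without alisertib but not with it, and CTNNB1, WNT11, FZD4 and WNT3 with it but not without. For none of these was the TGFβ effect called different between the settings when all 12 libraries were used.

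**Figure D2:**
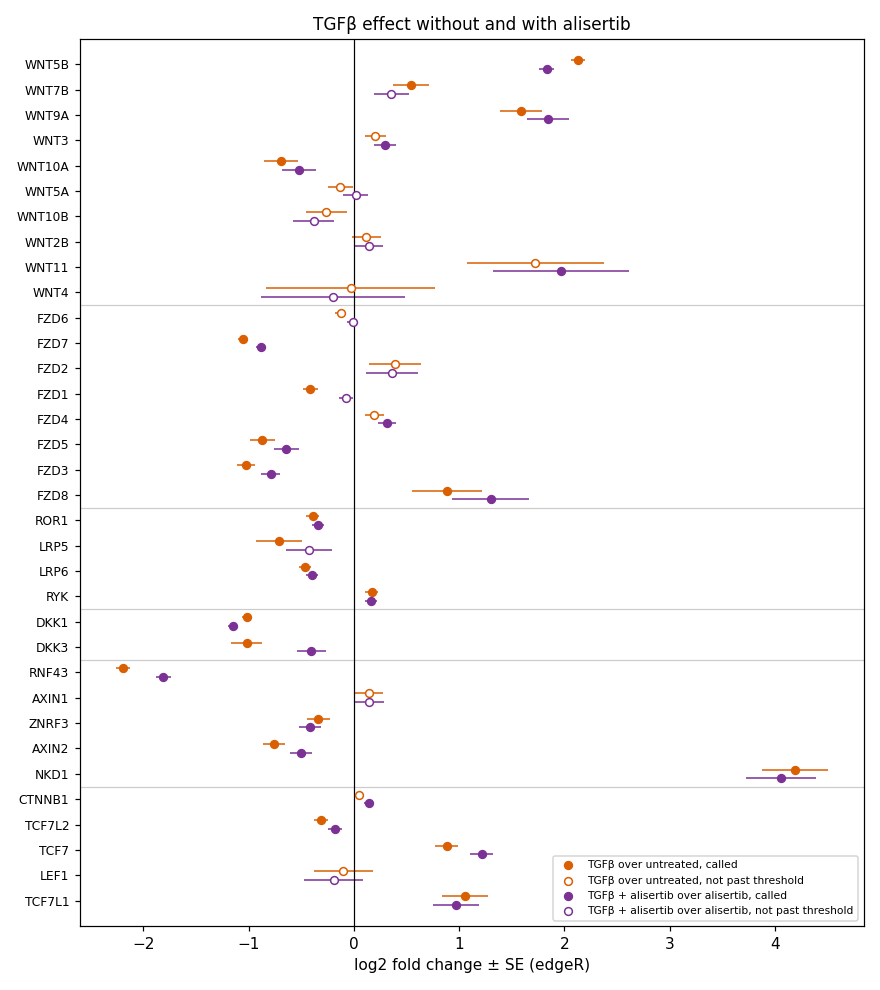
Log2 fold change ± SE for TGFβ over untreated cells and for the combination over alisertib, for the 34 genes by role; filled points passed the test. WNT5B, WNT9A, NKD1 and TCF7 lie right of 0 and RNF43, DKK1, FZD7 and FZD3 left of 0 in both comparisons.

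WNT5B and WNT9A were the ligands that rose most clearly with TGFβ. WNT5B acts mainly on β-catenin-independent signals. WNT5B had 43.5, 49.997 and 48.5 CPM in the combination libraries, 54.6, 52.9 and 51.2 CPM with TGFβ, 13.2, 13.6 and 13.1 CPM with alisertib and 12.1, 13.0 and 11.1 CPM in untreated cells. All 6 libraries with TGFβ were above all 6 without it, and TGFβ raised the gene 4.38-fold without alisertib (2.13 ± 0.07, adjusted p = 1.32e-11) and 3.56-fold with it (1.83 ± 0.07, adjusted p = 8.22e-11). WNT9A is a ligand known from joint development. WNT9A had 16.7, 23.9 and 23.5 CPM in the combination libraries, 23.0, 25.4 and 19.0 CPM with TGFβ, 6.61, 6.02 and 5.22 CPM with alisertib and 4.99, 8.20 and 9.19 CPM in untreated cells. Again the 6 libraries with TGFβ were above the 6 without it, although the lowest combination value came from library 10 and the lowest untreated value from library 1. The change was 1.59 ± 0.20 without alisertib (adjusted p = 1.49e-05) and 1.84 ± 0.20 with it (adjusted p = 4.19e-06). In hg19, the build of the files, WNT5B (ENSG00000111186) lies on chromosome 12 from 1639057 to 1756409 and WNT9A (ENSG00000143816) lies on chromosome 1 from 228106357 to 228135599. WNT5B overlaps FBXL14, which had 121 counts on average against 3394 for WNT5B. WNT9A's neighbour WNT3A, 59153 bases away, had 20 counts over all libraries against 18529 for WNT9A.

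In summed ligand level per gene length, both groups with TGFβ lay above both without it, and so did the share of WNT5B. Summed ligand RPKM was 20.2 to 24.9 in the combination, 22.7 to 25.7 with TGFβ alone, 9.98 to 11.0 with alisertib and 8.97 to 11.0 in untreated cells. WNT5B made up 47.6% ± 2.04 of that sum in the combination, 50.3% ± 2.36 with TGFβ, 29.4% ± 1.4 with alisertib and 27.5% ± 3.99 in untreated cells (SD, n = 3 each). These sums were not tested.

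WNT7B was called higher and WNT10A lower with TGFβ alone. WNT7B is a ligand known from lung and blood vessel development. WNT7B had 13.0, 18.7 and 17.6 CPM in the combination libraries, 16.6, 16.2 and 13.5 CPM with TGFβ, 14.5, 12.4 and 11.7 CPM with alisertib and 7.72, 12.4 and 11.6 CPM in untreated cells. Its call with TGFβ alone (0.54 ± 0.17, adjusted p = 0.0193) did not hold in every setting: the adjusted p was 0.124 without a filter on low counts, 0.0530 with only the 2 groups fitted, 0.0862 without library 1, 0.0703 without library 4 and 0.0632 without library 5. With alisertib present the change was 0.35 ± 0.17 and did not pass (adjusted p = 0.111). There the adjusted p was 0.0498 without library 1, 0.0385 without library 10 and 2.67e-05 without libraries 1, 6, 9 and 10. With the offset for GC content and length that change was -0.0087 (adjusted p = 0.924). WNT10A is a ligand that signals through β-catenin. WNT10A had 1.17, 1.70 and 1.67 CPM in the combination libraries, 1.52, 1.75 and 1.43 CPM with TGFβ, 1.79, 2.28 and 2.43 CPM with alisertib and 2.31, 2.57 and 2.72 CPM in untreated cells. It fell with TGFβ alone (-0.69 ± 0.16, adjusted p = 0.00325) and in the combination against alisertib (-0.52 ± 0.16, adjusted p = 0.0206). The second call ended in 4 settings, with an adjusted p of 0.0666 without library 8, 0.0812 without library 9, 0.0801 without library 10 and 0.154 without libraries 1, 6, 9 and 10.

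The remaining ligands changed little or were scarce. WNT3 had 7.42, 8.0 and 8.02 CPM in the combination libraries, 6.66, 8.86 and 7.97 CPM with TGFβ, 6.59, 6.12 and 6.36 CPM with alisertib and 6.23, 6.81 and 7.34 CPM in untreated cells. WNT3, a ligand of the β-catenin branch, was called in the combination against alisertib (0.30 ± 0.10, adjusted p = 0.0331), a call that ended at 0.0596 without library 7, 0.105 without library 8, 0.0988 without library 9, 0.0520 without library 2, 0.0937 without library 11 and 0.118 without library 12. With TGFβ alone it was 0.20 ± 0.10 (adjusted p = 0.135; 0.0420 with the offset for GC content and length and 0.0276 without library 4). WNT2B had 4.54, 4.05 and 5.03 CPM in the combination libraries, 3.68, 3.59 and 3.86 CPM with TGFβ, 3.51, 4.92 and 3.91 CPM with alisertib and 2.98, 3.37 and 3.88 CPM in untreated cells. WNT2B passed in the combination against untreated cells (0.41 ± 0.13, adjusted p = 0.0246), and there the adjusted p was 0.0506 with only the 2 groups fitted, 0.0845 without library 1, 0.0699 without library 2, 0.128 without library 12 and 0.0619 without libraries 1, 6, 9 and 10. WNT2B overlaps ST7L over part of its locus, and reads from the shared stretch cannot be told apart by strand. WNT11, a ligand of the polarity branch, had 12, 16 and 40 counts in the combination libraries, 14, 30 and 14 with TGFβ, 4, 2 and 10 with alisertib and 2, 8 and 6 in untreated cells. Since WNT11 met the minimum of 10 counts mainly in libraries with TGFβ, its difference was fixed in part by that rule. Its calls, in any setting, therefore add no support. The change was 1.72 ± 0.65 with TGFβ alone (adjusted p = 0.0505), just above the threshold, and 1.97 ± 0.64 in the combination against alisertib (adjusted p = 0.0262), where it was 0.0918 without library 7, 0.103 without library 8 and 0.172 without library 12. The first of these was called in 10 other settings, with an adjusted p of 0.0317 with DESeq2, 0.0460 with the offset for GC content and length, 0.0411 without a filter on low counts, 0.0454 with only the 2 groups fitted, 0.0475 with RLE size factors, 0.0416 without library 9, 0.0474 without library 10, 0.0432 without library 12, 0.0471 without library 6 and 0.0493 without libraries 1, 6, 9 and 10. WNT5A (2.61 to 3.35 CPM over the 12 libraries) and WNT4 (0.00998 to 0.165 CPM) were called in none of the 6 tests. WNT10B (0.787 to 1.43 CPM) was called in none with all 12 libraries and no offset. Its change was -0.38 ± 0.19 in the combination against alisertib (adjusted p = 0.135; 0.0154 with the offset for GC content and length, 0.0402 without library 9 and 0.0264 without libraries 1, 6, 9 and 10) and -0.31 ± 0.19 against untreated cells (adjusted p = 0.237; 0.0326 with the offset for GC content and length).

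**Figure D3:**
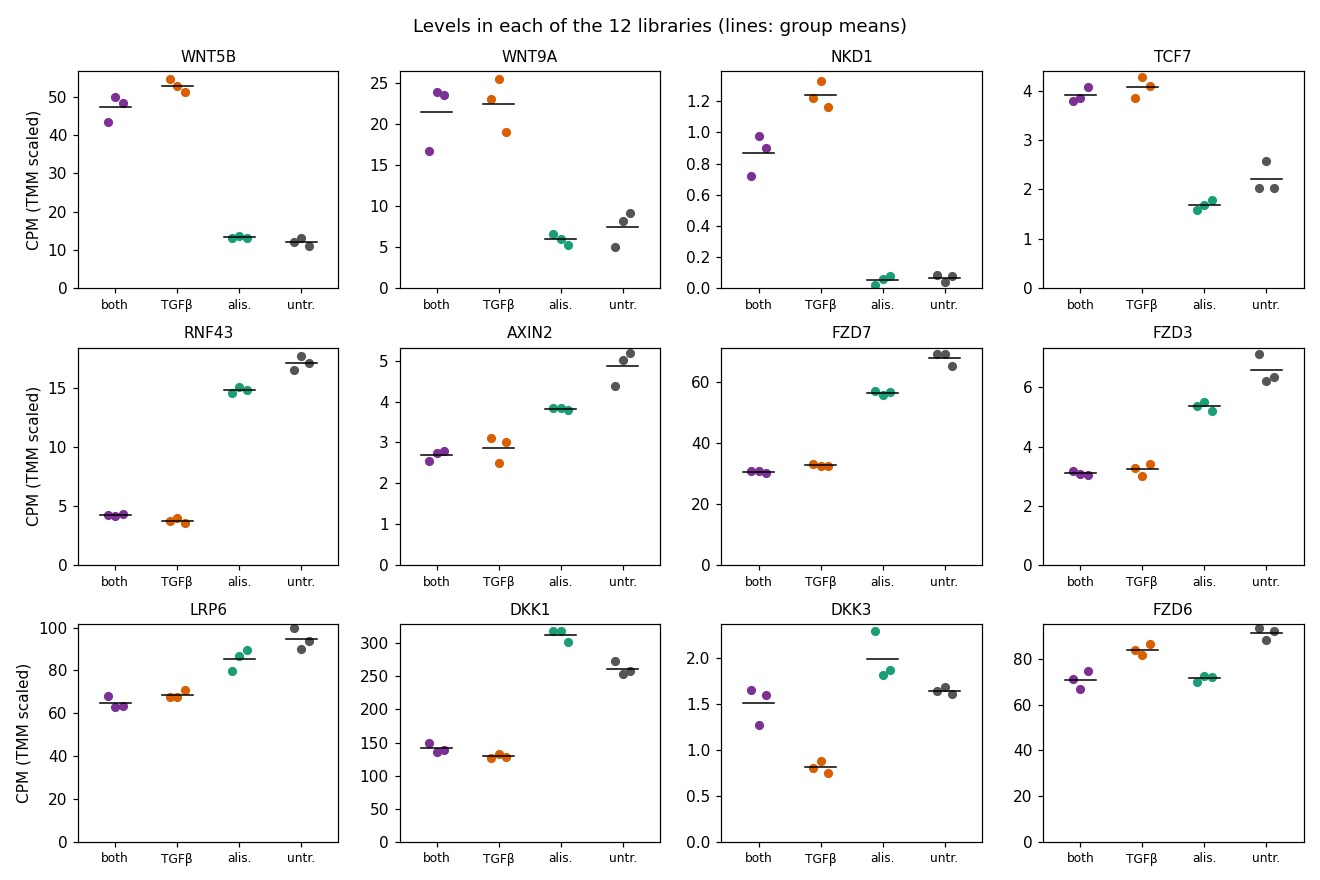
CPM in each library for 12 genes, with the combination, TGFβ, alisertib and untreated groups from left to right and lines at group means (n = 3). WNT5B, WNT9A, NKD1 and TCF7 lie higher in all 6 libraries with TGFβ, RNF43, AXIN2, FZD7, FZD3, LRP6 and DKK1 lower, while DKK3 is lowest with TGFβ alone and FZD6 is lower in both groups with alisertib.

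Among the frizzled receptors FZD7, FZD3 and FZD5 fell with TGFβ, with or without alisertib. FZD7 is known for high levels in triple-negative breast tumours. FZD7 had 30.9, 30.7 and 30.0 CPM in the combination libraries, 32.9, 32.4 and 32.5 CPM with TGFβ, 57.1, 55.5 and 56.6 CPM with alisertib and 69.2, 69.1 and 65.2 CPM in untreated cells. The 6 libraries with TGFβ were all below the 6 without it, with a change of -1.06 ± 0.05 without alisertib (adjusted p = 1.81e-10) and -0.89 ± 0.05 with it (adjusted p = 1.59e-09). FZD3 is a receptor known from axon guidance. FZD3 had 3.16, 3.09 and 3.06 CPM in the combination libraries, 3.26, 3.0 and 3.43 CPM with TGFβ, 5.37, 5.51 and 5.19 CPM with alisertib and 7.14, 6.22 and 6.36 CPM in untreated cells. Its change was -1.02 ± 0.09 with TGFβ alone (adjusted p = 3.02e-07) and -0.79 ± 0.09 in the combination against alisertib (adjusted p = 5.88e-06), with no overlap between the groups. FZD5 is a receptor known from gut and eye development. FZD5 had 4.21, 4.16 and 3.36 CPM in the combination libraries, 3.72, 3.69 and 3.69 CPM with TGFβ, 6.08, 6.45 and 5.72 CPM with alisertib and 7.15, 5.66 and 7.47 CPM in untreated cells. It fell by less, with -0.87 ± 0.12 for TGFβ alone (adjusted p = 3.18e-05) and -0.64 ± 0.12 in the combination against alisertib (adjusted p = 0.000543). In hg19, FZD7 (ENSG00000155760) lies on chromosome 2 from 202899310 to 202903160.

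FZD1 and FZD6 fell with alisertib alone, and FZD1 also with TGFβ alone. FZD1 is a receptor of the β-catenin branch. FZD1 had 8.46, 8.41 and 8.68 CPM in the combination libraries, 9.40, 9.62 and 9.42 CPM with TGFβ, 9.45, 8.47 and 8.98 CPM with alisertib and 12.7, 13.1 and 12.0 CPM in untreated cells. All 3 treated groups lay below the untreated one: TGFβ alone changed it by -0.41 ± 0.07 (adjusted p = 0.000234), alisertib alone by -0.49 ± 0.07 (adjusted p = 0.000692) and the combination against untreated cells by -0.57 ± 0.07 (adjusted p = 1.16e-05). FZD6, the frizzled gene with the most transcript per length, is tied to planar cell polarity. FZD6 had 71.1, 66.8 and 74.7 CPM in the combination libraries, 83.7, 81.5 and 86.4 CPM with TGFβ, 69.9, 72.4 and 72.0 CPM with alisertib and 93.7, 88.4 and 92.4 CPM in untreated cells. Alisertib changed it by -0.36 ± 0.05 in cells without TGFβ (adjusted p = 0.000692), and TGFβ alone left it at -0.12 ± 0.05, which did not pass (adjusted p = 0.0621; 0.0289 without libraries 1, 6, 9 and 10). In the combination against TGFβ the change was -0.24 ± 0.05 (adjusted p = 0.0220), a call that ended at 0.0540 with only the 2 groups fitted, 0.0654 without library 10, 0.109 without library 11, 0.0951 without library 4, 0.0550 without library 5 and 0.0954 without library 6.

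FZD4 was highest in the combination, and FZD8 was called higher with TGFβ. FZD4 is a receptor known from retinal blood vessels. FZD4 had 11.4, 11.6 and 10.9 CPM in the combination libraries, 8.41, 8.69 and 9.10 CPM with TGFβ, 8.41, 9.57 and 9.25 CPM with alisertib and 8.48, 6.84 and 7.54 CPM in untreated cells. The combination libraries lay above all others, while TGFβ alone gave 0.20 ± 0.09 (adjusted p = 0.0923; 0.00257 with the offset for GC content and length, 0.0180 without library 1 and 0.0232 without libraries 1, 6, 9 and 10). The combination's change was 0.57 ± 0.09 against untreated cells (adjusted p = 0.000103) and 0.32 ± 0.09 against alisertib (adjusted p = 0.00962), the second at 0.0517 without library 7. Against TGFβ it was 0.37 ± 0.09 (adjusted p = 0.0404), and that call ended without any 1 of library 3, 4, 5, 6, 7, 8, 9, 10, 11 or 12 (adjusted p 0.0522 to 0.178). FZD4 overlaps PRSS23, a serine protease gene with 39707 counts per library on average against 976 for FZD4. PRSS23 was itself called higher in the combination against untreated cells (0.56 on the log2 scale) and against alisertib (0.35), and at 0.04 against TGFβ it did not pass (adjusted p = 0.758). Its part in the FZD4 values was not tested. FZD8, at 0.146 to 0.703 CPM, was named after its values were seen because its mean is under 1 CPM. It rose with TGFβ alone by 0.89 ± 0.33 (adjusted p = 0.0485), with overlapping groups. That call ended in 12 of 18 other settings, at 0.0558 to 0.192, among them leaving out library 1, 2, 5, 6, 7, 8, 9, 11 or 12 (adjusted p 0.0558 to 0.168). In the combination against alisertib it was 1.30 ± 0.37 (adjusted p = 0.0121), and 0.0512 without library 12. FZD2, at 4.42 to 10.8 CPM, was called in none of the 6 tests with all 12 libraries (TGFβ alone 0.40 ± 0.25, adjusted p = 0.231; 0.00773 without libraries 1, 6, 9 and 10). Its other values were 0.37 ± 0.25 in the combination against alisertib (adjusted p = 0.270; 0.000130 without libraries 1, 6, 9 and 10) and -0.19 ± 0.25 with alisertib alone (adjusted p = 0.747; 0.0149 without libraries 1, 6, 9 and 10). With the offset for GC content and length, FZD2 in the combination against alisertib was -0.0562 (adjusted p = 0.718).

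Summed over the 8 frizzled genes, RPKM was 32.6 to 35.2 in the combination, 37.8 to 38.3 with TGFβ alone, 39.6 to 40.3 with alisertib and 49.0 to 49.3 in untreated cells. The untreated group was highest. FZD7 took 22.1% to 24.6% of that sum in the combination, 22.0% to 22.4% with TGFβ alone, 36.0% to 37.1% with alisertib and 34.4% to 36.7% in untreated cells. FZD6 took 48.9% to 53.6% in the combination, 52.3% to 56.3% with TGFβ alone, 42.7% to 44.7% with alisertib and 44.1% to 47.1% in untreated cells. These sums and shares are descriptions without a test.

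LRP6 and ROR1 fell moderately with TGFβ. LRP6 is the co-receptor that carries the β-catenin signal in most cells. LRP6 had 68.0, 63.0 and 63.5 CPM in the combination libraries, 67.4, 67.5 and 70.8 CPM with TGFβ, 79.8, 86.7 and 89.4 CPM with alisertib and 99.6, 90.2 and 93.6 CPM in untreated cells. Libraries with TGFβ were all below those without it: the change was -0.46 ± 0.06 without alisertib (adjusted p = 1.21e-05) and -0.40 ± 0.06 with it (adjusted p = 6.15e-05). ROR1 is a receptor-like kinase that binds WNT5A. ROR1 had 76.0, 75.1 and 77.7 CPM in the combination libraries, 78.2, 76.5 and 80.2 CPM with TGFβ, 98.8, 93.8 and 96.4 CPM with alisertib and 114, 97.0 and 97.5 CPM in untreated cells. It changed by -0.39 ± 0.06 with TGFβ alone (adjusted p = 8.04e-05) and by -0.34 ± 0.06 in the combination against alisertib (adjusted p = 0.000347), without overlap.

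LRP5 was called lower and RYK higher with TGFβ alone, and both calls ended in several settings. LRP5 is the close relative of LRP6. LRP5 had 24.6, 38.6 and 38.4 CPM in the combination libraries, 40.7, 44.2 and 30.3 CPM with TGFβ, 49.0, 48.6 and 38.5 CPM with alisertib and 41.2, 73.0 and 74.2 CPM in untreated cells. Untreated library 1 lay with the TGFβ libraries, so the groups overlapped, and the change with TGFβ alone was -0.71 ± 0.22 (adjusted p = 0.0181, but 0.133 without a filter on low counts, 0.0791 without library 2, 0.122 without library 3 and 0.0786 without library 6). The combination against alisertib gave -0.42 ± 0.22 (adjusted p = 0.143; 9.15e-06 with the offset for GC content and length, 0.0484 with only the 2 groups fitted and 7.52e-07 without libraries 1, 6, 9 and 10). RYK is a receptor with an inactive kinase domain. RYK had 73.0, 65.3 and 68.3 CPM in the combination libraries, 69.4, 66.3 and 72.8 CPM with TGFβ, 60.1, 61.1 and 63.4 CPM with alisertib and 66.5, 59.4 and 59.6 CPM in untreated cells. Its change was 0.17 ± 0.06 with TGFβ alone (adjusted p = 0.0388), with overlap, and this ended at 0.0779 with only the 2 groups fitted, 0.0547 without library 8, 0.106 without library 2, 0.0976 without library 3, 0.0894 without library 4 and 0.135 without library 6. In the combination against alisertib it was 0.16 ± 0.06 (adjusted p = 0.0466), which ended in 12 of 18 other settings at 0.0519 to 0.164, among them without library 2, 3, 4, 5, 7, 8, 9, 10 or 12 (adjusted p 0.0519 to 0.164).

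Both measured antagonists fell with TGFβ. A rise with alisertib was called for DKK1 only in cells without TGFβ and for DKK3 only in cells with it. By edgeR on all 12 libraries, the alisertib effect did not differ past the threshold between these settings (adjusted p = 0.973 for DKK1, 0.433 for DKK3). DKK1 blocks LRP5 and LRP6. DKK1 had 150.0, 135 and 138 CPM in the combination libraries, 127, 132 and 129 CPM with TGFβ, 319, 318 and 302 CPM with alisertib and 273, 253 and 258 CPM in untreated cells. The alisertib libraries were highest, the untreated ones next and all 6 libraries with TGFβ lower than either. TGFβ changed it by -1.01 ± 0.05 without alisertib (adjusted p = 6.67e-10) and -1.15 ± 0.05 with it (adjusted p = 2.62e-10), and alisertib alone raised it by 0.26 ± 0.05 (adjusted p = 0.00549). The combination differed from TGFβ by 0.13 ± 0.05, which did not pass (adjusted p = 0.264). DKK3 is a divergent member of the family. DKK3 had 1.65, 1.27 and 1.60 CPM in the combination libraries, 0.806, 0.881 and 0.752 CPM with TGFβ, 2.29, 1.81 and 1.87 CPM with alisertib and 1.64, 1.69 and 1.61 CPM in untreated cells. The 3 libraries with TGFβ alone were lower than all other 9. TGFβ alone changed it by -1.02 ± 0.15 (adjusted p = 6.38e-05). Against TGFβ the combination was 1.85-fold higher (0.89 ± 0.15, adjusted p = 0.00593), a call kept in all 18 other settings. Against alisertib the change was -0.40 ± 0.14 (adjusted p = 0.0333), and that call ended at 0.0644 without a filter on low counts, 0.0547 with only the 2 groups fitted, 0.138 without library 7 and 0.150 without library 11. Against untreated cells it was -0.13 ± 0.14 (adjusted p = 0.512). Alisertib alone changed DKK3 by 0.27 ± 0.14, which did not pass (adjusted p = 0.296). In hg19, DKK1 (ENSG00000107984) lies on chromosome 10 from 54074056 to 54077802, and DKK3 (ENSG00000050165) lies on chromosome 11 from 11984653 to 12031316.

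Of the negative regulators inside the cell or at its membrane, RNF43, AXIN2 and ZNRF3 fell with TGFβ while NKD1 rose. RNF43 had 4.22, 4.16 and 4.29 CPM in the combination libraries, 3.69, 3.95 and 3.6 CPM with TGFβ, 14.5, 15.0 and 14.8 CPM with alisertib and 16.5, 17.7 and 17.1 CPM in untreated cells. The 6 libraries with TGFβ were all below the 6 without it, and the alisertib libraries were below the untreated ones. TGFβ lowered RNF43 4.57-fold without alisertib (-2.19 ± 0.07, adjusted p = 8.67e-12) and 3.5-fold with it (-1.81 ± 0.07, adjusted p = 8.16e-11). It overlaps SUPT4H1, which had 9106 counts on average against 1034 for RNF43 and a change of -0.08 with TGFβ alone (adjusted p = 0.183). AXIN2 is a scaffold of the destruction complex. AXIN2 had 2.55, 2.74 and 2.80 CPM in the combination libraries, 3.10, 2.50 and 3.02 CPM with TGFβ, 3.84, 3.83 and 3.79 CPM with alisertib and 4.38, 5.02 and 5.19 CPM in untreated cells. Its change was -0.76 ± 0.10 with TGFβ alone (adjusted p = 3.92e-05) and -0.50 ± 0.10 in the combination against alisertib (adjusted p = 0.00162). AXIN2 overlaps CTD-2535L24.2 over part of its locus. That gene had 261 counts on average against 375 for AXIN2 and a change of -0.51 with TGFβ alone (adjusted p = 0.0194). Reads from the shared stretch cannot be told apart by strand. In hg19, RNF43 (ENSG00000108375) lies on chromosome 17 from 56429861 to 56494956.

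NKD1, which binds Dishevelled and inhibits WNT signals, was named after its values were seen because its mean is under 1 CPM. It had 75, 106 and 105 counts in the combination libraries, 130, 142 and 133 with TGFβ, 2, 6 and 8 with alisertib and 8, 4 and 8 in untreated cells. Since it met the minimum of 10 counts only in libraries with TGFβ, its difference was fixed in part by that rule. The change was 4.19 ± 0.31 with TGFβ alone (adjusted p = 7.2e-08) and 4.06 ± 0.33 in the combination against alisertib (adjusted p = 2.21e-07); at such counts the fitted size depends on the prior count. In hg19, NKD1 (ENSG00000140807) lies on chromosome 16 from 50582241 to 50670647. ZNRF3 is the relative of RNF43. ZNRF3 had 5.59, 4.87 and 5.25 CPM in the combination libraries, 7.19, 6.30 and 5.34 CPM with TGFβ, 7.26, 6.64 and 7.05 CPM with alisertib and 7.71, 7.42 and 8.62 CPM in untreated cells. Its change was -0.34 ± 0.11 with TGFβ alone (adjusted p = 0.0226; 0.0678 with only the 2 groups fitted, 0.0974 without library 3, 0.0605 without library 5 and 0.104 without library 6). The combination against alisertib gave -0.42 ± 0.11 (adjusted p = 0.00705). AXIN1, the other AXIN scaffold, was at 12.4 to 18.4 CPM and was called in none of the 6 tests with all 12 libraries and no offset. TGFβ alone gave 0.14 ± 0.14 (adjusted p = 0.457), the combination 0.15 ± 0.14 against alisertib (adjusted p = 0.427) and 0.03 ± 0.14 against untreated cells (adjusted p = 0.901). With the offset for GC content and length all 3 turned negative and were called, at -0.20 (adjusted p = 0.0163), -0.26 (adjusted p = 0.00228) and -0.27 (adjusted p = 0.00151) in the same order. Without libraries 1, 6, 9 and 10 the value against alisertib was called higher (0.17, adjusted p = 0.0283), so the direction of AXIN1 depended on the setting.

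TCF7 and TCF7L1 rose with TGFβ, TCF7L2 was slightly lower with TGFβ alone, and β-catenin and LEF1 did not pass the test with TGFβ alone. TCF7 is known from T cell development, and TCF7L1 often acts as a repressor. TCF7 had 3.80, 3.85 and 4.08 CPM in the combination libraries, 3.85, 4.27 and 4.09 CPM with TGFβ, 1.59, 1.68 and 1.79 CPM with alisertib and 2.03, 2.57 and 2.03 CPM in untreated cells. Libraries with TGFβ were all above those without it, with 0.88 ± 0.11 for TGFβ alone (adjusted p = 1.55e-05) and 1.21 ± 0.11 in the combination against alisertib (adjusted p = 7.84e-07). TCF7 overlaps SKP1, which had 40004 counts on average against 318 for TCF7 and a change of -0.01 with TGFβ alone. TCF7L1, at 0.419 to 1.28 CPM, was named after its values were seen and changed by 1.05 ± 0.22 (adjusted p = 0.00149) and 0.97 ± 0.22 (adjusted p = 0.00289) in the same comparisons. TCF7L2 had 16.1, 16.2 and 16.7 CPM in the combination libraries, 16.1, 15.6 and 17.2 CPM with TGFβ, 18.2, 19.2 and 18.0 CPM with alisertib and 18.8, 21.0 and 20.9 CPM in untreated cells. TCF7L2, the TCF gene with the most transcript per length, changed by -0.31 ± 0.07 with TGFβ alone (adjusted p = 0.00143). It was -0.18 ± 0.07 in the combination against alisertib (adjusted p = 0.0456), which ended in 10 of 18 other settings at 0.0553 to 0.397, among them without library 4, 5, 7, 8, 9, 10, 11 or 12 (adjusted p 0.0553 to 0.152). With the offset for GC content and length it was -0.07 (adjusted p = 0.397). TCF7L2 still made up 81.7% to 82.4% of the summed RPKM of the 4 TCF and LEF genes in the combination, 79.1% to 83.1% with TGFβ alone, 89.5% to 90.7% with alisertib and 89.4% to 90.4% in untreated cells. In hg19, TCF7 (ENSG00000081059) lies on chromosome 5 from 133450402 to 133487556.

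The level of β-catenin transcript differed little between groups, with overlap between all but the alisertib libraries and those with TGFβ. CTNNB1 had 679, 649 and 663 CPM in the combination libraries, 644, 658 and 686 CPM with TGFβ, 592, 597 and 613 CPM with alisertib and 676, 631 and 609 CPM in untreated cells. TGFβ alone left it at 0.05 ± 0.05 (adjusted p = 0.401; 6.67e-05 with the offset for GC content and length). It was 0.14 ± 0.05 in the combination against alisertib (adjusted p = 0.0260), and this ended at 0.0835 without library 7, 0.0773 without library 8, 0.0585 without library 9, 0.0765 without library 10 and 0.0854 without library 12. CTNNB1 overlaps ULK4, which had 732 counts on average against 67977 for CTNNB1. LEF1, at 0.378 to 0.778 CPM, was called in none of the 6 tests.

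Alisertib alone changed 4 of the 34 genes, beside 6.74% of all tested genes called, 3.55% higher and 3.19% lower: DKK1 rose, and FZD7, FZD1 and FZD6 fell. These 4 calls are 11.8% of the members. All 4 were kept in all 18 other settings, and their changes were 1.20-fold to 1.41-fold. FZD7 changed by -0.27 ± 0.05 (adjusted p = 0.00264). Further genes lay just outside the threshold: TCF7 (-0.39 ± 0.11, adjusted p = 0.0585), FZD3 (-0.29 ± 0.09, adjusted p = 0.0573), AXIN2 (-0.35 ± 0.10, adjusted p = 0.0609) and RNF43 (-0.21 ± 0.07, adjusted p = 0.0785). Without untreated library 1 the count was 9, with FZD4 also higher and TCF7 (adjusted p = 0.0300), FZD8, RNF43 (0.0475) and AXIN2 (0.0200) also lower. The count over all tested genes moved as well, from 718 to 2598 when each library was left out in turn, beside 1387 with all 12.

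In cells with TGFβ, alisertib changed 3 of the 34 genes, beside 2.08% of all tested genes called, 1.19% higher and 0.890% lower: DKK3 and FZD4 were higher and FZD6 lower in the combination than with TGFβ alone. The DKK3 call was the only 1 of the 3 kept in all 18 other settings, and the count was 1 without combination library 10 or 11 or without TGFβ library 4, 5 or 6. FZD1 changed by -0.15 ± 0.07 (adjusted p = 0.364) and FZD7 by -0.10 ± 0.05 (adjusted p = 0.406) there, neither past the threshold. Set against untreated cells, the combination raised 9 and lowered 14 of the 34 genes, beside 39.7% of all tested genes called, 19.4% higher and 20.3% lower. This comparison shares the untreated libraries with those of the single agents. WNT5B was at 1.97 ± 0.07, NKD1 at 3.68 ± 0.32, RNF43 at -2.02 ± 0.07 and FZD7 at -1.15 ± 0.05. LRP5 was called lower (-0.89 ± 0.22, adjusted p = 0.00455; 0.0569 without a filter on low counts) and WNT7B higher (0.64 ± 0.17, adjusted p = 0.00761; 0.0687 without a filter on low counts). WNT11 was at 1.92 ± 0.64 (adjusted p = 0.0285; 0.0932 without library 1, 0.0662 without library 3 and 0.186 without library 12). The differences of NKD1 and WNT11 were fixed in part by the rule of at least 10 counts.

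**Figure D4:**
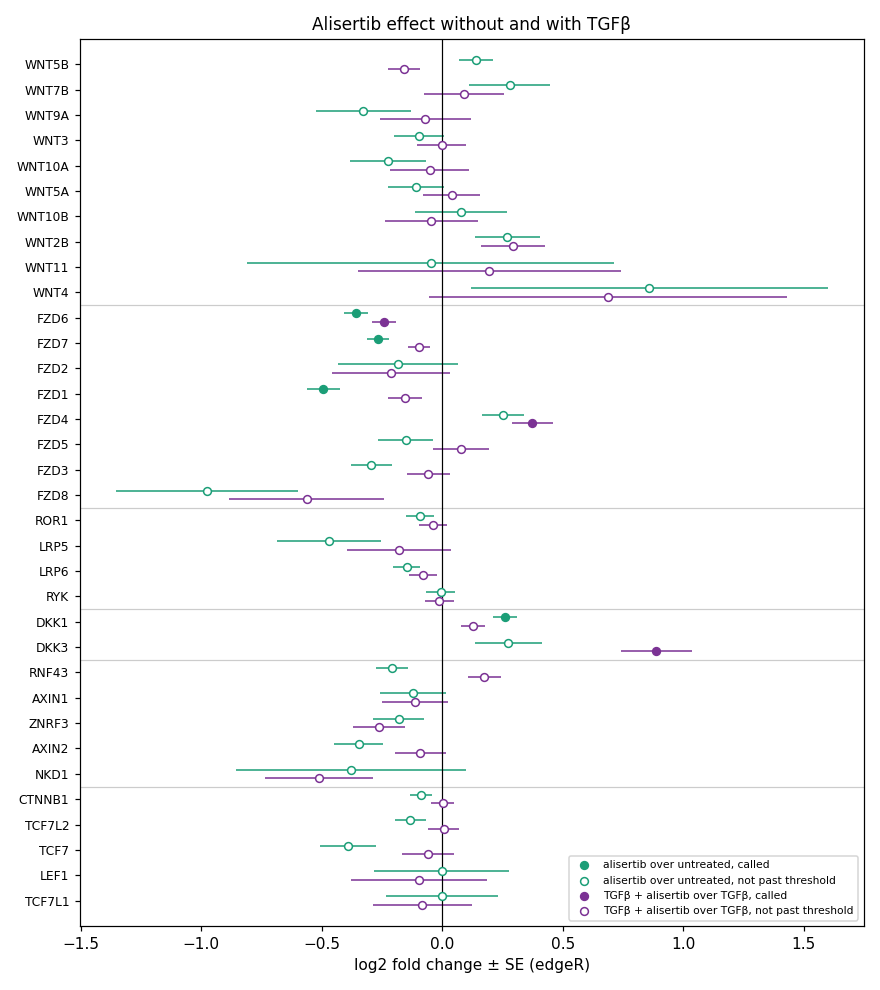
Log2 fold change ± SE for alisertib over untreated cells and for the combination over TGFβ, for the 34 genes by role; filled points passed the test. FZD6, FZD7 and FZD1 are left of 0 and DKK1 right of 0 without TGFβ, and DKK3 is the gene farthest right among the called ones with TGFβ.

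The interaction asked whether the effect of alisertib differed between cells with and without TGFβ. It was called for 0 of the 34 genes by edgeR's quasi-likelihood test, beside 0.282% of all tested genes, 0.117% higher and 0.165% lower, and for 0 by DESeq2. Without libraries 1, 6, 9 and 10, which keeps 2 libraries per group, it was called for WNT9A, LRP5 and DKK1. WNT9A and LRP5 were lowest of their group in all 4 of the libraries left out, so their calls are no independent support. With all 12 libraries DKK1 had -0.13 ± 0.07 (edgeR adjusted p = 0.973), and only the setting without these 4 libraries called it. At an unadjusted p under 0.05 there were 5 of the 34 genes, beside 1170 of all 20571 tested genes. RNF43 had a difference of 0.38 ± 0.10 (edgeR adjusted p = 0.170) and passed in 1 other setting, at 0.0351 with the offset for GC content and length. FZD1 had 0.34 ± 0.10 (adjusted p = 0.283), WNT5B -0.30 ± 0.10 (adjusted p = 0.415), DKK3 0.61 ± 0.20 (adjusted p = 0.433) and FZD7 0.17 ± 0.06 (adjusted p = 0.615). Responses of DKK3, FZD1 and FZD7 to alisertib with and without TGFβ were therefore not shown to differ between these settings.

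In 1 library of each group the members deviated from the partner libraries along GC content, least so in alisertib library 9. WNT9A, LRP5, WNT7B, AXIN1 and FZD2, with transcripts of 59.5% to 64.9% GC, were lowest of their group in all 4 of combination library 10, TGFβ library 6, alisertib library 9 and untreated library 1. RYK, LRP6 and CTNNB1, at 36.8% to 43.5% GC, were highest of their group in all 4. Across the 28 members with a mean of at least 1 CPM, the Spearman correlation of the deviation with GC content was -0.675 in combination library 10, -0.737 in TGFβ library 6, -0.372 in alisertib library 9 and -0.726 in untreated library 1. Each of these is taken within 1 library across genes, so it is a description without a test. The groups hold 1 such library each.

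**Figure D5:**
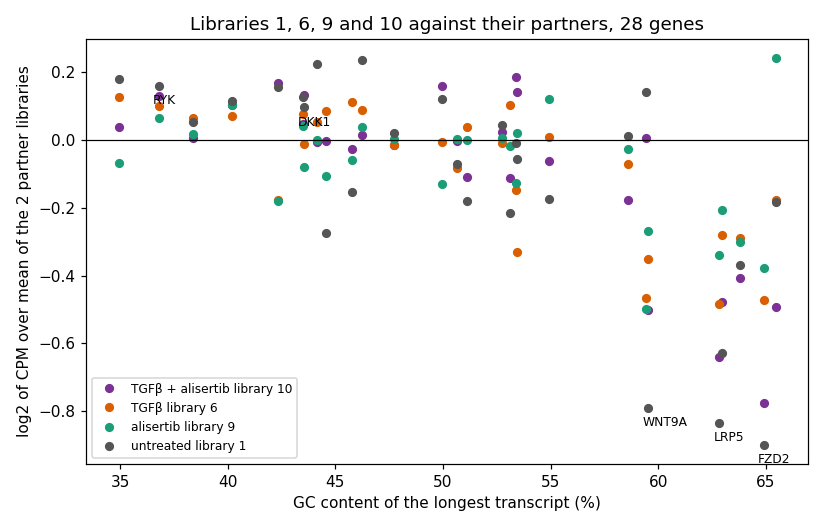
Log2 ratio of CPM in combination library 10, TGFβ library 6, alisertib library 9 or untreated library 1 to the mean of its 2 partners (y) against GC content of the gene's longest transcript in percent (x), for 28 genes. At the highest GC contents most points lie below 0, with FZD2, LRP5 and WNT9A of untreated library 1 lowest.

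Other genes of the pathway were taken from 5 lists, whose counts stand beside 38.6% of all tested genes called with TGFβ alone (median change -0.01) and 38.4% in the combination against alisertib. Of 14 tested genes for WNT secretion and extracellular control, 4 rose and 5 fell with TGFβ alone, with a median change of 0.04, and 2 rose and 3 fell in the combination against alisertib. PORCN, the enzyme that attaches the lipid to WNT proteins, had 51.4 ± 4.8 CPM with TGFβ and 19.5 ± 3.5 CPM in untreated cells (SD, n = 3 each), a change of 1.40 ± 0.12 (adjusted p = 2.57e-07). TPBG, known in zebrafish to inhibit β-catenin signalling, had 88.9 ± 1.9 CPM with TGFβ and 48.6 ± 1.0 CPM in untreated cells (0.87 ± 0.05). SOST, a secreted LRP antagonist, had 1.35 ± 0.037 CPM with TGFβ and 3.01 ± 0.30 CPM in untreated cells (-1.16 ± 0.12). All 3 changed in the same direction in the combination against alisertib, PORCN by 1.19 ± 0.12, TPBG by 0.70 ± 0.05 and SOST by -0.99 ± 0.11.

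Of 25 tested genes for transduction in the cytoplasm, 6 rose and 4 fell with TGFβ alone, with a median of 0.10, and likewise 6 and 4 in the combination against alisertib. With the offset for GC content and length 16 of the 25 were called with TGFβ alone, and without libraries 1, 6, 9 and 10 the count against alisertib was 16, so both counts depended on the setting. DVL1, a Dishevelled protein that relays the signal from frizzled, had 63.7 ± 12 CPM with TGFβ and 24.7 ± 8.3 CPM in untreated cells (1.36 ± 0.24, adjusted p = 0.000320). CSNK1A1, a kinase that marks β-catenin for destruction, had 277 ± 10.2 CPM with TGFβ and 214 ± 13 CPM in untreated cells (0.37 ± 0.05). AMER1, a scaffold of the destruction complex, had 10.4 ± 0.28 CPM with TGFβ and 14.0 ± 0.22 CPM in untreated cells (-0.43 ± 0.08). Of 15 tested nuclear cofactors, 4 rose and 4 fell with TGFβ alone, with a median of 0.04, and 5 rose and 3 fell in the combination against alisertib. TBL1X, which helps β-catenin at target genes, had 58.7 ± 1.7 CPM with TGFβ and 119 ± 5.3 CPM in untreated cells (-1.02 ± 0.05). CTNNBIP1, which blocks β-catenin from binding TCF, had 21.3 ± 1.8 CPM with TGFβ and 41.4 ± 5.8 CPM in untreated cells (-0.96 ± 0.10). BCL9L, a β-catenin coactivator, had 139 ± 17 CPM with TGFβ and 80.2 ± 19 CPM in untreated cells (0.79 ± 0.16).

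Of 24 tested genes of the planar polarity and calcium branches, 8 rose and 4 fell with TGFβ alone, with a median of 0.14, and 8 rose and 3 fell in the combination against alisertib. PRICKLE1, a core planar polarity protein, had 5.20 ± 0.24 CPM with TGFβ and 30.6 ± 2.4 CPM in untreated cells (-2.56 ± 0.10, adjusted p = 5.52e-11). PTK7, a co-receptor of that branch, had 127 ± 13 CPM with TGFβ and 53.4 ± 9.9 CPM in untreated cells (1.25 ± 0.14). CAMK2B, a calcium-dependent kinase subunit, had 1.43 ± 0.095 CPM with TGFβ and 0.348 ± 0.095 CPM in untreated cells (2.04 ± 0.25). Alisertib alone raised it as well, with 0.915 ± 0.22 CPM against the same untreated libraries (1.39 ± 0.26, adjusted p = 0.00533).

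Of 19 tested target genes of β-catenin and TCF that are not members, 7 rose and 7 fell with TGFβ alone, with a median of 0.00, and 9 rose and 7 fell in the combination against alisertib. EPHB2, an ephrin receptor, had 462 ± 42 CPM with TGFβ and 99.5 ± 17 CPM in untreated cells (2.22 ± 0.14, adjusted p = 8.12e-09). BMP4, a secreted protein of the TGFβ family, had 34.2 ± 0.70 CPM with TGFβ and 233 ± 22 CPM in untreated cells (-2.77 ± 0.07) and -2.38 ± 0.07 in the combination against alisertib. JUN, an AP-1 subunit, had 180.1 ± 10.2 CPM with TGFβ and 58.8 ± 4.2 CPM in untreated cells (1.61 ± 0.07). TNFRSF11B, the decoy receptor osteoprotegerin, had 3.24 ± 0.30 CPM with alisertib and 6.55 ± 0.70 CPM in untreated cells (-1.02 ± 0.12, adjusted p = 0.000161). Among the members, AXIN2, RNF43 and ZNRF3 are targets that fell with TGFβ. NKD1 is a target that rose, but its difference was fixed in part by the rule of at least 10 counts.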

How the data were processed

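TruSeq RNA v2 libraries of total RNA (miRNeasy kit) do not mark the strand, per the labels' protocols and the kit's design. Reads from a stretch where genes overlap therefore cannot be assigned by strand. How the counting treated such reads was not tested. The tools named in the submitters' processing notes are bcl2fastq, TopHat, Subread with featureCounts, and the build hg19, with no versions in the sources used here. The authors deposited raw counts per gene and RPKM values that the authors computed from them, whose denominators were 1.10 to 1.11 times each library's total count.

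Counts were tested as deposited in edgeR 4.0.16 (R 4.3.3): filterByExpr kept 20571 genes, TMM factors scaled libraries, and 1 quasi-likelihood fit held all 12 libraries, with 8 residual degrees of freedom. Tests were 5 pairwise comparisons and the interaction (alisertib effect with TGFβ minus that without), adjusted by Benjamini-Hochberg over all tested genes. The SE is the log2 fold change divided by the square root of F. The RPKM values in the text were computed from the TMM-scaled CPM and each gene's coding length, not taken from the deposited RPKM. They were used to compare genes and for shares. Alternatives were RLE size factors, no filter, DESeq2 1.42.0, a loess offset for GC content and length, only the groups compared, and leaving out libraries. Simulated counts with changes of known size were used to test the fit. The table has 0 columns of other samples. GC content came from a GENCODE annotation for 19649 tested genes.

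The members, lists, tests and alternatives were chosen with earlier results of these data known. Values in every library are given for members called in any test whose mean reached 1 CPM, and for CTNNB1, LRP5, LRP6 and AXIN2. NKD1, TCF7L1, FZD8 and WNT11, with lower means, and the motifs TATAAA and GGGCGG were chosen after values were seen. Of each list, up to 3 genes per comparison qualified, those with the largest called changes at that mean, and some of these are not named.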

Additional observations from a re-analysis of the deposited data

How the results depend on the processing

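No paired analysis was possible because the replicate numbers run from 1 to 12 and no number is shared between groups. Of the members' called values, all 72 alternative values for alisertib against untreated cells kept their call, as did 365 of 396 for TGFβ against untreated cells, 404 of 414 for the combination against untreated cells, 368 of 414 for the combination against alisertib and 38 of 54 for the combination against TGFβ; none of these reversed. Members called for alisertib against untreated cells (4) became 8 with DESeq2, 12 with the offset for GC content and length and 13 without libraries 1, 6, 9 and 10, and were 4 to 9 when each library was left out in turn. For the combination against TGFβ (3) they were 1 to 3 with a library left out, 1 of them without combination library 10 or 11 or TGFβ library 4, 5 or 6. For the interaction (0) they were 0 to 0 with a library left out, 1 with the offset (RNF43, adjusted p = 0.0351) and 3 without libraries 1, 6, 9 and 10: WNT9A (0.42, adjusted p = 0.025), LRP5 (0.44, adjusted p = 0.000193) and DKK1 (-0.25, adjusted p = 0.00417). With a library left out, members called were 19 to 23 for TGFβ against untreated cells, 21 to 24 for the combination against untreated cells and 16 to 24 for the combination against alisertib. Values not past the threshold that turned negative with the offset were WNT7B (-0.0087), FZD2 (-0.0562) and AXIN1 (-0.26) in the combination against alisertib and AXIN1 with TGFβ alone (-0.20) and in the combination against untreated cells (-0.27); only the AXIN1 values were then called. With a library left out, AXIN1 in the combination against untreated cells was -0.0875 to 0.15, uncalled throughout. All genes called ranged over these settings from 6511 to 9527 for TGFβ (7940 as reported), 623 to 5073 for alisertib (1387), 6591 to 9934 for the combination against untreated cells (8169), 153 to 1759 against TGFβ (428) and 6239 to 10098 against alisertib (7901), and 19 to 744 for the interaction (58). Pathway lists under alisertib alone moved as well, beside 6.74% of all tested genes called with all 12 libraries. Leaving out 1 library gave 4 to 10 of 19 β-catenin targets called (8 with all 12). Polarity and calcium genes called were 1 to 5 of 24 (4 with all 12), and nuclear cofactors 0 to 5 of 15 (1 with all 12). Each of these was highest without library 1. All genes called ranged from 718 to 2598 with a library left out. The cause of these shifts was not tested. RLE size factors shifted the median gene by -0.0133 to 0.0122 on the log2 scale. Depth limits WNT11, WNT4 and NKD1, which were below 10 counts in some libraries.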
